A study of Rattus norvegicus with 8 samples.

Results

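Acute phase genes encode plasma proteins whose synthesis changes during inflammation, chiefly in the liver, and protease inhibitor genes encode proteins that block proteolytic enzymes in plasma and tissue. In liver cells, interleukin-6 acting through the transcription factor STAT3 and interleukin-1 acting with the C/EBP transcription factors induce many of them. In the brain, several are made by astrocytes, choroid plexus or infiltrating leukocytes. The 8 genes described here are 5 acute phase genes, namely *Serpina3n*, *A2m*, *Hp*, *Lbp* and *Orm1*, and 3 further inhibitor genes, *Serpine2*, *Cst3* and *Slpi*. They were chosen by gene name, with no threshold on their values, but with earlier results of these data known. The lists of related genes below were chosen in the same way, so shares of called genes in either are descriptions only. The 8 genes come from the 15159 rat genes that could be named on the array, and each was represented by its brightest probe.

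RNA came from hypothalamic tissue blocks that included the arcuate nuclei, taken from male F344N rats held in short day (SD) and killed 24 hrs after an injection of 5 μl into the third ventricle. There were 4 rats given all-trans retinoic acid (RA), the active metabolite of vitamin A, and 4 given vehicle. The labels give 1e-05 M RA and saline as the vehicle, whereas the methods of the study give 1e-04 M for these rats and a vehicle of DMSO in saline. All rats shared the strain, sex, photoperiod and surgery, and their exact age was not given in the sources used here. An RA and a vehicle sample were hybridised together, in different dyes, on each of 8 two-colour Agilent arrays of 1 slide. RA was in Cy5 on arrays 1, 3, 6 and 8 and in Cy3 on arrays 2, 4, 5 and 7.

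The value of a gene on an array is the log2 ratio of RA over vehicle after background correction and loess normalisation, so that 1 stands for a doubling after RA. The mean of the 8 arrays was tested with limma, a linear model that shares variance estimates between probes. Which arrays of opposite dye order shared RNA is not stated, so the fit was run under each of the 24 possible pairings and a gene kept its least favourable p. A gene was called where this p, before adjustment (raw p), was under 0.01, as in the methods of the study. The first slide row held arrays 1 to 4 and the second row arrays 5 to 8. Whether the arrays of a row also shared rats is not stated, so slide row and animal cannot be told apart. For the red blood cell marker *Hbb*, the ratios were -0.56 and -0.40 on arrays 1 and 2, and 0.93 and 1.00 on arrays 3 and 4. They were -0.90 and -0.97 on arrays 5 and 8, and 0.34 and 0.15 on arrays 6 and 7. Each such couple holds both dye orders and may carry the same RNA, which was not tested. Agreement within a couple may therefore not be agreement between separate rats. On an array, 57.4% to 74.6% of all probes were well above background with RA and 61.2% to 74.5% with vehicle. The share went with the dye, at 67.6% to 74.6% in Cy5 and 57.4% to 66.5% in Cy3. Whether a probe was well above background in a channel thus depends on the dye as well as the level. Of 16 listed hypothalamic marker genes 15 had a probe and 14 were well above background on all 8 arrays in at least 1 channel.

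Of the 8 genes, 3 were called, and all 3 rose after RA. These were *Slpi* (4.28-fold), *Serpina3n* (2.52-fold) and *A2m* (1.71-fold). In the background of 15156 named genes that were tested, 3.52% were called higher and 0.792% lower. No gene of the 8 was called lower. The log2 ratio kept its sign on all 8 arrays for 5 of them, above 0 for *Slpi*, *Serpina3n*, *A2m* and *Hp* and below 0 for *Serpine2*. Among all named genes 4.07% were above 0 on all 8 arrays and 1.8% were below. The median log2 fold change of the 8 was 0.26, against -0.0047 for all named genes. After adjustment over all probes 0 of the 8 stayed under 0.05 in limma (5 had a raw p under 0.05), and their adjusted p values ran from 0.222 to 0.947. The same was true of all 30347 probes, of which 0 stayed under 0.05 in limma although 3291 had a raw p below it. With the pair as a random block, adjusted p values in limma were 0.0276 for *A2m*, 0.0232 for *Slpi* and 0.0621 for *Serpina3n*. With the 8 arrays taken as independent they were 0.0102, 0.0107 and 0.0348, but that fit counts dye-swapped arrays of the same RNA as separate samples and so overstates the evidence. The random-block fit gives all probes the same correlation within pairs, -0.21 to 0.34 depending on the pairing. It links paired arrays only loosely and may overstate the evidence as well, with 297 of all probes under 0.05 after adjustment.

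**Figure D1:**
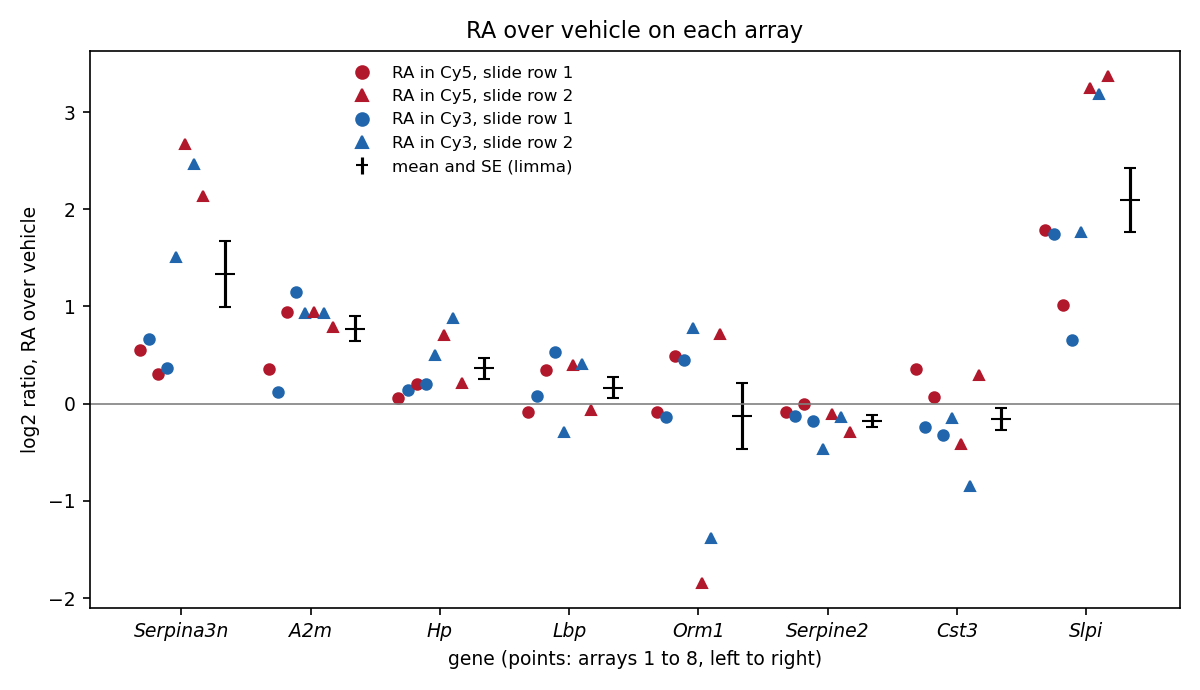
Log2 ratio of RA over vehicle (vertical axis) of each of the 8 genes on arrays 1 to 8, drawn left to right within a gene. Red points have RA in Cy5 and blue points RA in Cy3, circles are the first slide row and triangles the second, and the black bar is the mean of 8 arrays with its limma standard error. All points lie above 0 for *Serpina3n*, *A2m*, *Hp* and *Slpi* and below 0 for *Serpine2*, and for *Serpina3n* every triangle lies above every circle.

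Promoter sequences of 250 bases before to 50 after the annotated start were given by RefSeq (GRCr8) for 4 of the 8 genes, *Serpina3n*, *Orm1*, *Cst3* and *Serpine2*. They were searched on both strands for the STAT motif TTCNNNGAA, the C/EBP motif TTGCNNAA, the nuclear receptor half-site AGGTCA and the NF-kappaB consensus. Those of *Serpina3n* and *Orm1* are shown as the acute phase genes among the 4, of which *Serpina3n* was called and *Orm1* was not. *Serpina3n* starts on the plus strand of chromosome 6, and its promoter (chr6:129088142-129088441) held 1 STAT match, in capitals, at -123 to -115 from the start. *Orm1* lies on the plus strand of chromosome 5, and its promoter (chr5:81788259-81788558) held 1 C/EBP match on the minus strand, in capitals, at -123 to -116.
Serpina3n: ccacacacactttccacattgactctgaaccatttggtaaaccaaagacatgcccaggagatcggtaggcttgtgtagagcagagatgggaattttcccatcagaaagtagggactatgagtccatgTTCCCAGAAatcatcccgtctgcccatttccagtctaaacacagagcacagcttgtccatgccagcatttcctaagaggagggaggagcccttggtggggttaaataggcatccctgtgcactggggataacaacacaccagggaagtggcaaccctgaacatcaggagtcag
Orm1: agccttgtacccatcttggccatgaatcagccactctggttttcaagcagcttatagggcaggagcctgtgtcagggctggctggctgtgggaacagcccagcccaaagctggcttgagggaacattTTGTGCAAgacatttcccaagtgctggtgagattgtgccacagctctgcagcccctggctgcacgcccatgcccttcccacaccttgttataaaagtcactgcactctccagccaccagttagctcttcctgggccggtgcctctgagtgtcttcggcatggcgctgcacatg
Of 33469 rat promoters of this length, 2970 (8.87%) held the STAT motif and 3547 (10.6%) the C/EBP motif. Neither match is thus particular to these genes, and 4 promoters were searched for 4 motifs. The *Cst3* promoter, on the minus strand of chromosome 3, also held 1 C/EBP match, and that of *Serpine2*, on the minus strand of chromosome 9, held none of the 4 motifs. In *Serpine2* 77% of the bases were G or C, against 50% in *Serpina3n* and a median of 51.7% over all promoters. None of the 4 promoters held the nuclear receptor half-site, which 16.2% of all promoters held. A match is only a run of letters, and its use in the hypothalamus was not tested.

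*Serpina3n* encodes a secreted serpin of the antichymotrypsin family that is known as a marker of reactive astrocytes, and it rose 2.52-fold. With RA in Cy5, its log2 ratio was 0.55 on array 1, 0.30 on array 3, 2.67 on array 6 and 2.13 on array 8. With RA in Cy3, it was 0.66 on array 2, 0.36 on array 4, 1.51 on array 5 and 2.47 on array 7. All 8 ratios were above 0, and those of the second slide row did not overlap those of the first. The mean log2 ratio was 1.33 with a standard error of 0.34, a raw p of 0.00559 and an adjusted p of 0.283 in limma. The rise was 1.39-fold in the first row and 4.58-fold in the second, and this difference between rows passed limma's test with an adjusted p of 0.00282. That test takes the 8 arrays as independent although they share RNA samples, so its p values are too small. In the same test 492 of all probes had an adjusted p under 0.05. The dye orders gave similar means, 1.42 for Cy5 and 1.25 for Cy3 as the dye of RA.

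The RA level of *Serpina3n*, a normalised log2 intensity, ran from 6.89 on array 4 to 10.51 on array 7 with a median of 8.01. The vehicle level ran from 6.50 to 8.04 with a median of 6.98. The range of RA levels therefore overlapped that of vehicle levels, although RA was the higher channel on each array. RA was well above background on 8 arrays and vehicle on 6, the exceptions being arrays 1 and 3, where vehicle was in Cy3. The first row alone also gave a call, at a log2 fold change of 0.47 with a raw p of 1.57e-04 in limma. That fit had only the pair means of arrays 1 to 4, so its p rests largely on variance estimates shared between probes. It is not independent of the fit on all arrays. Without arrays 6 and 7 the log2 fold change was 0.92 with a raw p of 0.0128 in limma. The call was also lost in limma without arrays 6 and 5, 8 and 2, 8 and 5, or 8 and 7, and with robust variances (p of 0.0613). It held in the other 11 of 16 such omissions. The size depended on the background correction, with a log2 fold change of 2.04 under plain subtraction and 2.11 with Agilent's log ratio.

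*Slpi* encodes secretory leukocyte protease inhibitor, which blocks neutrophil elastase and cathepsin G and is made by epithelia and phagocytes. It had the largest rise of the 8 genes, 4.28-fold. With RA in Cy5 its log2 ratio was 1.78 on array 1, 1.02 on array 3, 3.25 on array 6 and 3.37 on array 8. With RA in Cy3 it was 1.74 on array 2, 0.65 on array 4, 1.77 on array 5 and 3.19 on array 7. The ratio was lowest on arrays 3 and 4 and highest on arrays 6, 7 and 8, and every array showed more *Slpi* after RA. The mean log2 ratio was 2.10 with a standard error of 0.33, a raw p of 3.44e-04 and an adjusted p of 0.222 in limma. In the first slide row the rise was 2.46-fold and in the second 7.43-fold, with an adjusted p of 0.0412 for the difference in limma, from the same test. With plain subtraction the log2 fold change was 3.35 and with Agilent's log ratio 3.48. Vehicle was well above background on 6 arrays, all but 1 and 3, where it was in Cy3. Its level was 6.83 and 6.69 on those 2, yet lower on arrays 2 (6.32) and 4 (6.61), and 6.72 and 6.90 on arrays 5 and 8. The ratios of all arrays but 6 and 7 thus rest on a dim vehicle channel.

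The RA level of *Slpi* was 11.43 on array 6 and 11.41 on array 7, against 7.26 on array 4. Its vehicle level was also higher on those arrays, at 8.18 and 8.23, than on the other 6, where it ran from 6.32 to 6.90. The vehicle and RA samples of arrays 6 and 7 thus both stood above those of the other arrays. Without arrays 6 and 7 the mean log2 ratio of the remaining 6 was 1.72. *Slpi* was called in all 16 omissions of an array of each dye order, but not with robust variances, which gave a p of 0.0189 in limma.

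*A2m* encodes alpha-2-macroglobulin, a large inhibitor that traps proteases of all classes and is a major acute phase protein of the rat. With RA in Cy5 its log2 ratio was 0.35 on array 1, 0.95 on array 3, 0.95 on array 6 and 0.79 on array 8. With RA in Cy3 it was 0.12 on array 2, 1.15 on array 4, 0.94 on array 5 and 0.94 on array 7. Arrays 1 and 2 were low and the other 6 lay close together, between 0.79 and 1.15. The mean log2 ratio was 0.77 with a standard error of 0.12, a raw p of 3.81e-04 and an adjusted p of 0.222 in limma. *A2m* was well above background in both channels of all 8 arrays.

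*A2m* was the most even of the 3 genes that rose. Its fold change was 1.56 in the first slide row and 1.87 in the second, a difference that did not pass limma's test (adjusted p of 0.615), and the dye orders had means of 0.76 and 0.79. RA levels ran from 10.82 to 12.60 and vehicle levels from 10.47 to 11.66, and both were highest on arrays 6 and 7. *A2m* is the only one of the 8 genes with a second probe, whose log2 fold change was 0.74 (standard error 0.13, raw p of 5.46e-04 in limma) with 8 of 8 arrays above 0. The call held in all 16 omissions of an array of each dye order and was lost with Agilent's own log ratio, where the log2 fold change was 0.78 and p was 0.0109 in limma.

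**Figure D2:**
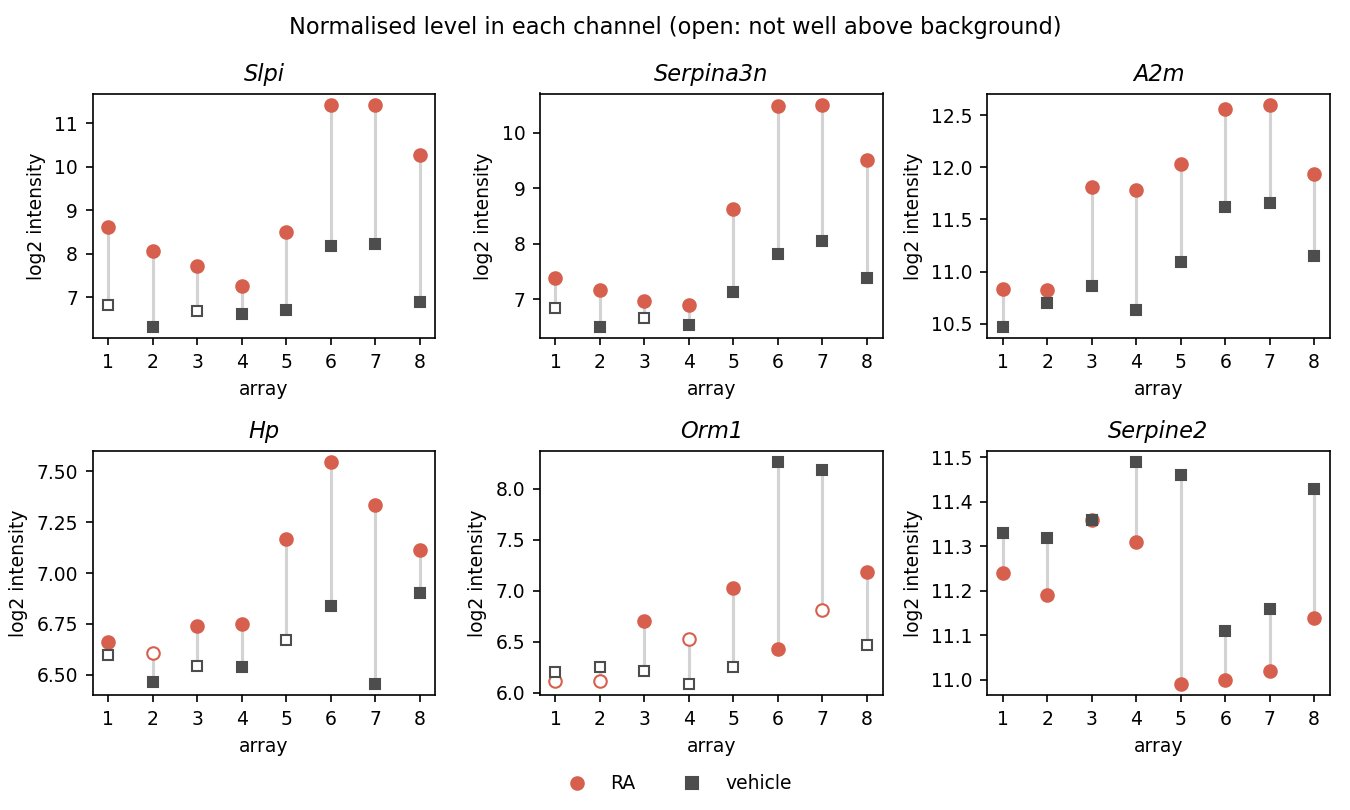
Normalised log2 intensity (vertical axis) of 6 genes in the RA channel (red circles) and the vehicle channel (grey squares) of arrays 1 to 8, with a line joining the channels of an array and open symbols where the probe was not well above background. The vertical scale differs between genes, whose levels are not comparable. *Slpi*, *Serpina3n* and *A2m* have RA above vehicle on every array, and *Orm1* has vehicle levels of 8.26 and 8.19 on arrays 6 and 7 only.

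*Hp* encodes haptoglobin, the plasma protein that binds free haemoglobin for uptake by its receptor CD163. Its log2 ratio was above 0 on all 8 arrays, from 0.06 on array 1 to 0.88 on array 7, but it did not pass the threshold. The mean was 0.36 with a standard error of 0.11, a raw p of 0.0109 and an adjusted p of 0.319 in limma, and 22 of the 24 pairings gave a p under 0.01. The highest ratios were 0.50 on array 5, 0.71 on array 6 and 0.88 on array 7. The other 5 arrays lay between 0.06 and 0.21. *Hp* was dim, with RA well above background on 7 arrays and vehicle on 5. Without arrays 6 and 7 the log2 fold change was 0.22. It was 0.15 in the first slide row and 0.57 in the second, and it was 1.15 with plain subtraction and 1.08 with Agilent's log ratio.

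*Lbp* encodes lipopolysaccharide-binding protein, which hands bacterial lipopolysaccharide to CD14. Its log2 ratio ran from -0.29 on array 5 to 0.53 on array 4 and was above 0 on 5 of 8 arrays. The mean was 0.17 with a 95% confidence interval of -0.09 to 0.42 and a raw p of 0.164 in limma, and each channel was well above background on 6 arrays. Its log2 fold change was 0.42 with plain subtraction and 0.43 with Agilent's log ratio, without a call. *Lbp* was thus spread around 0.

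*Orm1* encodes alpha-1-acid glycoprotein, an acute phase plasma protein that binds drugs and lipids. Its log2 ratio was -1.84 on array 6 and -1.38 on array 7. On the other 6 arrays it ran from -0.13 to 0.77, with 0.77 on array 5 and 0.72 on array 8. The gene did not move one way, and its mean of -0.13 had a standard error of 0.34 and a raw p of 0.720 in limma. The sign of that mean depended on arrays 6 and 7, without which it was 0.37 with a raw p of 0.0473 in limma. The low ratios came with high vehicle levels, 8.26 and 8.19 on arrays 6 and 7 against 6.08 to 6.47 elsewhere. The RA level ran from 6.11 to 7.19 over all arrays. Vehicle was well above background only on arrays 6 and 7, and RA on arrays 3, 5, 6 and 8.

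The same arrays stood apart in marker genes of the choroid plexus, the secretory epithelium of the ventricles, which makes transthyretin (*Ttr*). Of 11 such markers, 11 were below 0 on array 6 and 11 on array 7, with medians of -1.39 and -1.58. On the other 6 arrays the median lay between 0.07 and 0.54. The summed normalised intensity of the 11 probes was 251900 in vehicle and 12950 in RA on array 6, and 150500 and 6115 on array 7. Over all arrays it ran from 2101 to 251900 in vehicle and from 2246 to 139700 in RA. A list of hepatocyte markers that shares only *Ttr* with this one summed to 246600 and 144600 in vehicle on arrays 6 and 7. The sums on these arrays thus rest mostly on *Ttr* and not on all 11 probes. The log2 ratio of *Ttr* itself was -4.48 and -5.11 on arrays 6 and 7 and between 0.57 and 1.76 on the others. Limma called 0 of the 11 markers, and 0 had a raw p under 0.05. The part of choroid plexus RNA in the values of *Orm1* was not tested. In tissue blocks, fewer cells of a type and less RNA per cell cannot be told apart.

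**Figure D3:**
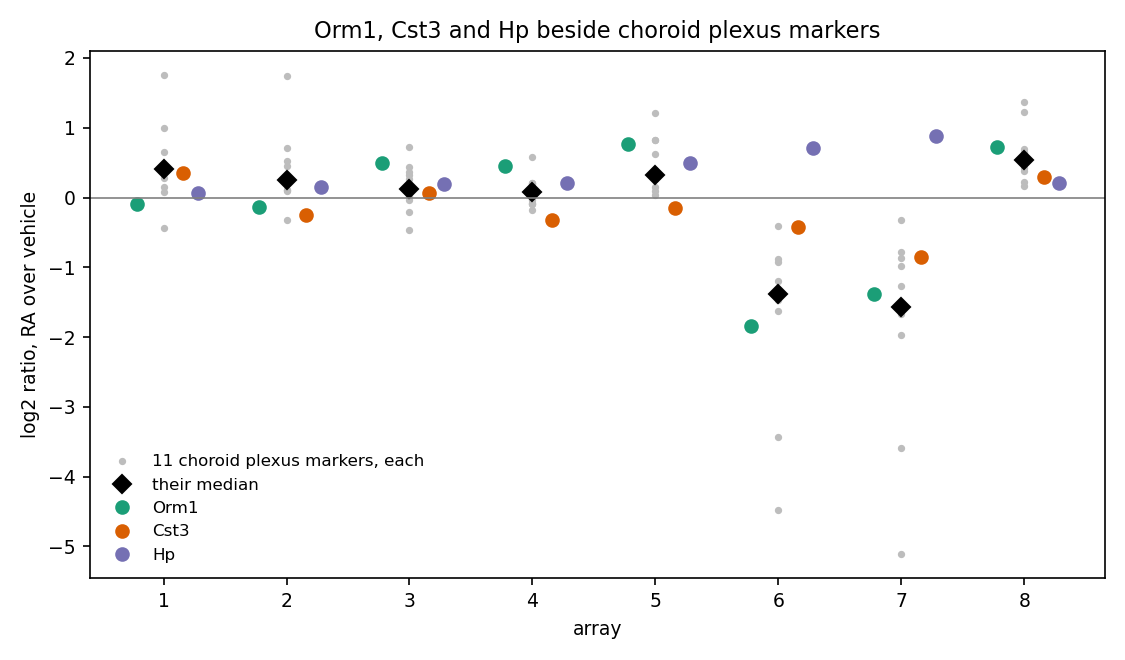
Log2 ratio of RA over vehicle (vertical axis) on arrays 1 to 8 for *Orm1* (green), *Cst3* (orange) and *Hp* (purple) beside each of 11 choroid plexus markers (grey points) and their median (black diamonds). On arrays 6 and 7 the median is -1.39 and -1.58, *Orm1* is -1.84 and -1.38, *Cst3* is -0.42 and -0.85 and *Hp* is 0.71 and 0.88.

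*Cst3* encodes cystatin C, a secreted inhibitor of cysteine cathepsins that is abundant in the brain and in choroid plexus. With RA in Cy5 its log2 ratio was 0.36 on array 1, 0.07 on array 3, -0.42 on array 6 and 0.29 on array 8. With RA in Cy3 it was -0.24 on array 2, -0.32 on array 4, -0.15 on array 5 and -0.85 on array 7. All 4 ratios with RA in Cy3 were below 0, and 3 of 4 with RA in Cy5 were above it. The mean was -0.16 with a standard error of 0.11 and a raw p of 0.209 in limma. The dye orders had means of 0.08 and -0.39, and this difference had a raw p of 0.0299 and an adjusted p of 0.169 in limma. As with *Orm1*, the lowest ratios were on arrays 6 and 7, and without them the mean of the other 6 was 0.00108. Levels were 16.54 to 17.20 in RA and 16.75 to 17.39 in vehicle, well above background on all arrays.

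*Serpine2* encodes protease nexin-1, a serpin made by glia that inhibits thrombin, urokinase and other serine proteases. Its log2 ratio was below 0 on 8 of 8 arrays, from -0.47 on array 5 to -0.0075 on array 3, but it did not pass the threshold. With RA in Cy5 the ratio was -0.09, -0.0075, -0.10 and -0.29 on arrays 1, 3, 6 and 8, and with RA in Cy3 it was -0.13, -0.18, -0.47 and -0.14 on arrays 2, 4, 5 and 7. The mean was -0.17 with a standard error of 0.061, a 95% confidence interval of -0.32 to -0.03, a raw p of 0.0237 and an adjusted p of 0.371 in limma. *Serpine2* was well above background in both channels of all 8 arrays.

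The lowest ratios of *Serpine2*, on arrays 5 and 8, came on arrays where other lists also stood apart. Of the 15 hypothalamic markers, 13 were below 0 on array 5 and 14 on array 8, with medians of -0.59 and -0.63, against -0.05 to 0.17 on the other arrays. Their summed intensity on array 5 was 127300 in RA and 220000 in vehicle. All 7 markers of meninges and fibroblasts were below 0 on both arrays as well, which was so on no other array. All 3 red blood cell markers were below 0 on arrays 5 and 8 and also on arrays 1 and 2. Without arrays 5 and 8 the mean log2 ratio of *Serpine2* was -0.11. The part of tissue composition in this value was not tested.

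For the 5 genes that were well above background on all 8 arrays in at least 1 channel, the genes whose 8 log2 ratios followed theirs most closely were found among 10041 genes by Pearson's r. For *Serpina3n* these were *Rab32* (r = 0.994), *Mcl1* (0.991) and *Cks2* (0.990). For *Slpi* they were *Ptpn18* (0.983), *Hcls1* (0.977) and *Fscn1* (0.977). For *A2m* the values were lower, with *Hspe1* at 0.938, *Ghitm* at 0.925 and *Acss2* at 0.924. For *Serpine2* they were *Gxylt1* (0.959), *Zcchc24* (0.954) and *Doc2a* (0.952), and for *Cst3* they were *Gpcpd1* (0.985), *Aldh3a2* (0.984) and *Rsrp1* (0.981). The 8 arrays share RNA samples and dye orders, so these values are descriptions only.

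Of 35 other acute phase plasma protein genes listed, 31 had a probe, of which 13 were well above background on all 8 arrays in at least 1 channel and 9 on none. Limma called 5 higher and 0 lower, which is 16.1% of the list against 3.52% of all named genes called higher and 0.792% called lower, and its median log2 fold change was 0.03. *Cp*, which encodes ceruloplasmin, the copper-carrying ferroxidase, rose by 2.60 on the log2 scale (standard error 0.24) and was between 1.58 and 3.33 on all 8 arrays. *Lcn2*, the siderophore-binding lipocalin, rose by 1.66 (standard error 0.38), with vehicle well above background on only 4 arrays. The complement genes *Cfb* (factor B) and *C3* rose by 1.55 and 0.65. *Fn1* (fibronectin), with 0.50, completes the 5 and was named after its values were seen, as were the genes outside the naming rule below. The liver genes *Crp*, *Fga*, *Fgb* and *Hpx* were not well above background in either channel of any array.

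Of 8 hepatocyte markers, 0 were called in limma (0 with a raw p under 0.05), and *Ttr* alone was well above background on all 8 arrays. *Alb* was well above background on 6 arrays in each channel. *Ttr* is also in the choroid plexus list.

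Among the other inhibitors, the share called higher lay nearer to the 3.52% of all named genes. Of 33 other serpins 2 rose and 0 fell (6.06%, with 0.792% of all named genes called lower), with a median of 0.01. These were *Serping1*, the C1 inhibitor of the complement cascade, at 0.94 (standard error 0.13), and *Serpinb1a*, an intracellular inhibitor of neutrophil proteases, at 0.79 (standard error 0.15). Both were above 0 on 8 of 8 arrays. Of 40 cystatin, WAP, macroglobulin, Kazal, Kunitz and metalloprotease inhibitor genes, 2 rose and 0 fell (5%, against the same background), with a median of -0.0036. *Timp1*, the inhibitor of matrix metalloproteases, rose by 2.19 (standard error 0.31) and lay between 0.95 and 3.19 on the 8 arrays. *Spink2* had 0.36, but its vehicle was well above background on no array.

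The proteases that these inhibitors act on were called in 4 of 21 cases (19%, against 3.52% of all named genes called higher and 0.792% lower), all higher, with a list median of 0.13. The 4 were lysosomal cysteine proteases, *Ctsz* (cathepsin Z) at 1.34, *Ctsc* (cathepsin C) at 0.91, *Lgmn* (legumain) at 0.63 and *Ctsh* (cathepsin H) at 0.22. The neutrophil proteases *Elane* and *Ctsg*, which *Slpi* blocks, were not well above background in either channel of any array. *Plat*, which encodes tissue plasminogen activator, had a log2 fold change of -0.04 (raw p of 0.488 in limma).

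Receptors and partners were called in 5 of 16 cases with a probe (31.2%, against 3.52% of all named genes called higher and 0.792% lower), all higher, with a median of 0.15. *Cd14*, to which lipopolysaccharide-binding protein delivers its ligand, rose by 1.43 (standard error 0.21) and was above 0 on 8 of 8 arrays. Its partner *Ly96* rose by 0.28, and the receptor *Tlr4* had 0.19 (raw p of 0.0188 in limma). *Hmox1*, the enzyme that degrades haem, rose by 0.80, and the annexin pair *Anxa2* and *S100a10* rose by 0.61 and 0.38. The haptoglobin receptor *Cd163* had 0.17 (raw p of 0.0150 in limma). *Lrp1*, which takes up protease complexes of alpha-2-macroglobulin and protease nexin-1, had 0.13 (raw p of 0.176 in limma).

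Genes of the pathways that induce acute phase genes were called in 7 of 27 cases with a probe (25.9%, against 3.52% of all named genes called higher and 0.792% lower), all higher, with a median of 0.11. The transcription factor *Cebpd* rose by 1.56 (standard error 0.24) and *Cebpb* by 0.94 (standard error 0.25). The cytokines *Il1b* and *Tnf* rose by 1.30 and 0.82, and *Tnfrsf1a*, a receptor for tumour necrosis factor, by 0.56. *Stat3* rose by 0.51 (standard error 0.10) and *Jak2*, a kinase that activates it, by 0.19. *Il6* was not well above background in either channel of any array, and *Socs3*, a target and inhibitor of STAT3, had 0.24 (raw p of 0.0598 in limma). Counted once each, the 6 lists held 162 genes, of which 41 had a raw p under 0.05, 25 were called and 0 stayed under 0.05 after adjustment over all probes in limma.

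**Figure D4:**
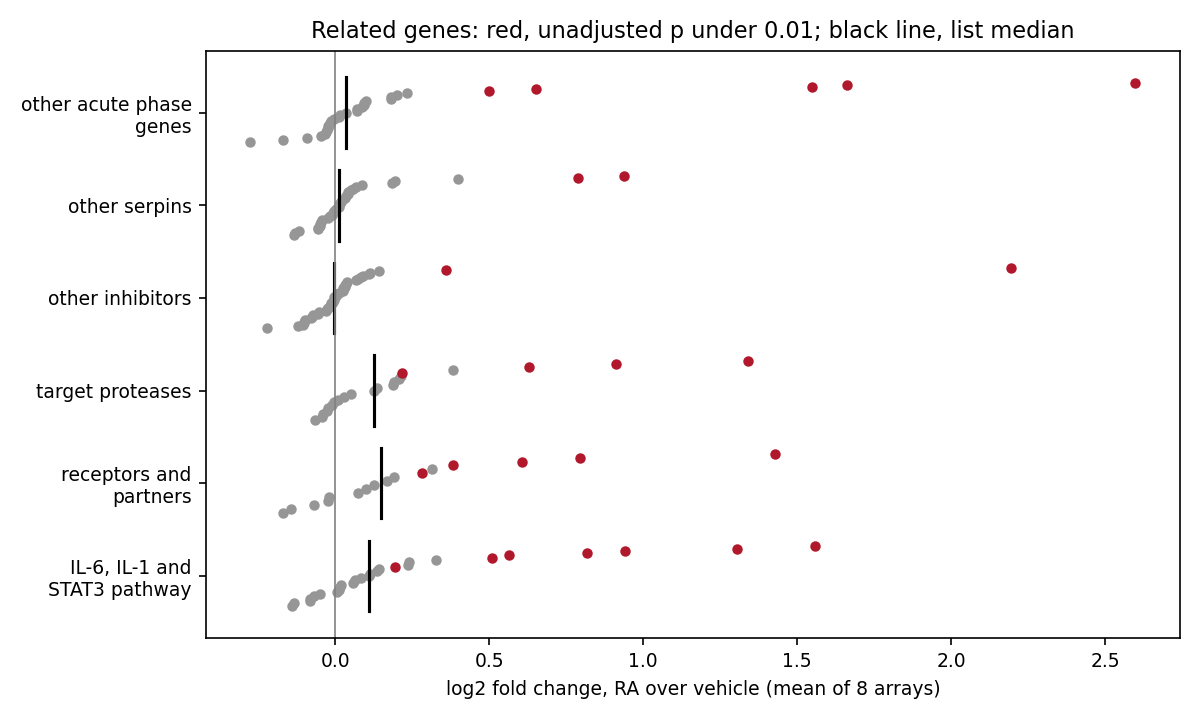
Log2 fold change of RA over vehicle (horizontal axis, mean of 8 arrays) of the genes in 6 lists related to the 8 genes, 1 point per gene, with red for a raw limma p under 0.01 and a black line at the list's median. Every red point lies right of 0, the farthest being *Cp* at 2.60, and the medians lie between -0.0036 and 0.15.

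Marker genes of cells that can make these proteins also differed between the channels. Of 8 astrocyte markers, 1 rose and 1 fell (25% called, against 3.52% of all named genes called higher and 0.792% lower). In lists as short as those of this paragraph, 1 call is already a large share. *Gfap*, the intermediate filament of astrocytes, rose by 1.40 (standard error 0.20) and *Gja1* (a gap junction connexin) fell by 0.22. The list's summed intensity was 56180 to 71630 in RA and 59690 to 66280 in vehicle. Of 9 markers of neutrophils and monocytes with a probe, 2 rose (22.2%, against the same background), *S100a9* by 1.25 and *Itgam* by 0.87. *Elane* was not well above background on any array. The summed intensity of the 9 was 1001 to 2648 in RA and 839.7 to 1166 in vehicle. Its ratio of RA over vehicle was highest on arrays 6 (2.84) and 7 (2.66), where *Serpina3n* was highest and *Slpi* was among the highest. The markers did not move alike there. On arrays 6 and 7 the log2 ratio was 2.83 and 2.75 for *S100a9* and 2.22 and 2.34 for *S100a8*. It was 0.32 and 0.22 for *Camp*, and the median of the 9 was 0.32 and 0.40. Depending on the array, 2 to 5 of the 9 probes were not well above background in RA and 4 to 6 in vehicle. The ratios of these sums thus rest partly on dim signal. Of 7 microglial markers, *Aif1* rose by 0.88 and *Tmem119* fell by 0.52 (28.6% called). The summed intensity of the 7 was 18770 to 30870 in RA and 17020 to 25640 in vehicle. Of 6 markers of tanycytes and ependyma, which line the ventricle, *Vim* (vimentin) rose by 0.62 (16.7% called), with a list median of 0.05. The others were not called, with *Crym* at 0.52, *Foxj1* at 0.08, *Nes* at 0.02, *Rax* at -0.07 and *Dio2* at -0.11. All 6 neuronal markers had a log2 fold change below 0, and *Nefl* (a neurofilament) fell by 0.30 (16.7% called). No marker of endothelium or oligodendrocytes was called (0 of 6 each in limma, with a raw p under 0.05 for 1 and 4 of them). The part of these cells in the values of *Slpi*, *Serpina3n* and *A2m* was not tested.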

How the data were processed

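The authors deposited, for each of 8 arrays, the scanner output of Agilent Feature Extraction 10.7.3.1, with the median intensity and background per spot on a linear scale and a log10 ratio of the Cy5 to the Cy3 signal. They also deposited a table of log2 ratios after loess normalisation, which correlated at 0.985 to 1.00 with loess values made here without background correction. Per the methods, limma was used with dye-swaps as a block.

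Here R 4.3.3 and limma 3.58.1 were used. Median signals were corrected by normexp (offset 50), control spots were dropped, outlier spots (0.913% to 2.42% per array) were left out, loess was applied within arrays, and spots of a probe were averaged. Ratios were turned to RA over vehicle. Channel levels were taken after Aquantile scaling. A probe was well above background where at least 0.5 of its spots carried Agilent's mark. The number of arrays limits the precision.

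Limma was fitted with an intercept on 4 means of 1 array of each dye order, under all 24 pairings, and the largest p was kept. Benjamini-Hochberg adjustment covered 30347 probes, and 20 probes with a missing value were not tested. With 4 pairs, an exact permutation test by turning signs (two-sided) cannot go below p = 0.125, which *Serpina3n*, *A2m*, *Hp*, *Serpine2* and *Slpi* reached. Dye order and slide row were tested on 8 arrays taken as independent. Names were matched by transcript accession to RefSeq genes of GRCr8 (18006 of 30367 probes), and the brightest probe stood for a gene.

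The 8 genes and all lists were chosen with earlier results of these data known. From each list at most 4 called genes with the largest changes were named, with 3 genes most like each of the 5 bright genes. Alternatives covered background correction, normalisation, scaling, dim probes, outlier spots, pairing, dye order, slide row, variance model, probe choice and omission of arrays.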

Additional observations from a re-analysis of the deposited data

Results flagged for a closer look

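Within the 4 arrays of a dye order, 5 of 48 sets of values searched had 1 array far from the other 3. Chance gives about 1 in 20 for a single set. The sets are not independent, because a ratio is searched beside its own levels and dye-swapped arrays share RNA. The count can therefore not be weighed against that rate. The vehicle level of *Orm1* was 8.26 on array 6, against 6.20 to 6.47 on the other arrays with RA in Cy5, and 8.19 on array 7, against 6.08 to 6.25 on the others with RA in Cy3. If arrays 6 and 7 carry the same RNA, these are not separate outliers. The vehicle level of *Slpi* was 8.18 on array 6, against 6.69 to 6.90. The vehicle level of *Lbp* was 7.14 on array 5, against 6.61 to 6.67. The log2 ratio of *Serpine2* was -0.47 on array 5, against -0.18 to -0.13.

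The log2 ratio differed between slide rows for *Serpina3n*, by 1.72 (second row minus first), and for *Slpi*, by 1.59. Both differences passed an adjusted p of 0.05 over all probes in limma, with the arrays taken as independent. The other 6 genes had adjusted p values for the row above 0.05.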

How the results depend on the processing

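Of all probes, 987 were called, against 320 with plain background subtraction, 330 with Agilent's log ratio, 1714 with the pair as a random block, 2480 with 8 independent arrays, 3109 with slide row as a fixed block, 3140 in the pairing with the most calls, 2160 with only the arrays with RA in Cy5, 2315 with only those with RA in Cy3, and 455 to 1110 when an array of each dye order was left out. Of the 8 genes, 3 were called, against 5 with the pair as a random block, 8 independent arrays, slide row as a fixed block, the pairing with the most calls or only RA in Cy3, 1 (*A2m*) with robust variances, and 2 to 4 when an array of each dye order was left out. The median log2 fold change of the 8 was 0.26, against 0.66 with plain subtraction, 0.65 with Agilent's log ratio, 0.77 over the 5 genes left by the filter on dim probes, and 0.20 to 0.34 with arrays left out. The sign of *Orm1* turned with plain subtraction (0.53), Agilent's log ratio (0.51), the first slide row alone (0.18) and some omissions (-0.42 to 0.37), and that of *Cst3* with only RA in Cy5 (0.077) and without arrays 6 and 7 (range over the omissions -0.24 to 0.00108). The cause of these changes was not tested. Beside the 16 omissions of arrays, *Slpi*, *Serpina3n* and *A2m* each kept their direction in 20 of 20 alternatives and their call in 19. Some of these alternatives could not lose a call. Aquantile scaling left the ratios as they were, and no pairing alone can exceed the largest p over all pairings. The mean over probes repeated the main fit for *Slpi* and *Serpina3n*, which have no second probe. Changes of pairing, block or variance model alone left the mean log2 ratio as it was, so they could not turn a direction. The counts of 20 and 19 thus overstate the support. In the 16 omissions the call held in 16 for *Slpi* and *A2m* and in 11 for *Serpina3n*. *Hp* was called in 7 of 19 and *Serpine2* in 4 of 20.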
